A study of Mus musculus with 7 samples.

Results

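The Vmn2r genes encode the V2R vomeronasal receptors of the mouse, and here they serve as a set of genes with no known role in gut epithelium against which the background of each peak list can be read. All genes annotated as protein-coding in RefSeq GRCm38.p6 whose symbol begins with Vmn2r were taken, which gave 124 of 21631 genes, 1 of them with the pseudogene-like symbol Vmn2r-ps130. Peaks of all 7 libraries that overlapped were merged into 326695 regions, and a region was given to a gene when that gene's body was the nearest protein-coding one and lay within 100 kb. This gave 668 Vmn2r regions. The symbol rule used no measured value, though it was chosen with earlier results of these data known.

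V2R proteins are G-protein-coupled receptors with a large extracellular domain, made by sensory neurons in the basal layer of the vomeronasal organ, where they bind peptide and protein pheromones. They signal through the G protein subunit encoded by Gnao1 and the ion channel encoded by Trpc2, and most of these neurons express very few receptor genes each. Most of the genes lie in tandem clusters, which include near-identical copies, and their known site of expression is outside the gut.

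The data are ATAC-seq peak lists, in which a peak is a stretch of open chromatin cut often by a transposase. The 7 libraries, 1 per group, were Sox2 KO stomach at embryonic day 16 (E16), forestomach, hindstomach, small intestine and colon at E16, and stomach and intestine at day 13 (E13). Sox2 encodes a transcription factor of the foregut. Epithelium came from ShhCre;R26YFP/+ embryos, in which Cre from the Shh gene switches on a fluorescent reporter in gut endoderm; at E13, organs of several pooled embryos were digested with trypsin and sorted. The E16 isolations differed, since dispase and collagenase were used for forestomach epithelium and EDTA for that of hindstomach, proximal small intestine and colon. For the KO the sources used here give neither the genotype beyond its name nor the isolation of the cells. With 1 library per group there is no replicate spread, no difference between groups was tested, and all intervals are 95% intervals for counting error only. The files hold neither read depth nor peak height nor expression, so whether the Vmn2r genes were silent was not measured.

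The lists held between 81179 peaks in E13 intestine and 135743 peaks in E16 colon, with median widths between 108 and 178 bp. At the Sox2 gene itself the KO list still had 1 peak that overlapped the gene body by 63 bp, against 219 bp of the body under peaks in forestomach, 93 bp in hindstomach and 102 bp in E13 stomach. Small intestine, colon and E13 intestine had no peak in the Sox2 body. Of 11 gut epithelium marker genes, such as Epcam, Cdh1 and Krt8, 9 had a peak at a gene end (within 1 kb of either end) in all 7 libraries, where the background over all protein-coding genes was 44.0%. Such peaks in all 7 libraries were also found at 2 of 5 markers of neurons and neural crest (Ret and Tubb3), 0 of 4 of mesenchyme and 1 of 3 of blood and immune cells (Spi1), so they do not by themselves mark the cell type.

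Receptor gene starts were almost empty of peaks, so 4 of their promoters are printed first, the 2 with a peak and 2 of well-studied receptors without one. Each window runs from 250 bases before to 50 bases after an annotated start in RefSeq GRCm38.p6, is written 5′ to 3′ on the strand of the gene, and has every CG dinucleotide (CpG) in capitals. Vmn2r29 (chr7:7278240-7278539, minus strand) held a peak of all 7 libraries and has 23 CpG. Vmn2r120 (chr17:57545265-57545564, minus strand) held a peak of colon alone and has 0 CpG. Vmn2r1 (chr3:64081392-64081691, plus strand, 4 CpG) and Vmn2r116 (chr17:23384553-23384852, plus strand, 0 CpG) held none; the first encodes a V2R of family C, which is expressed broadly in basal neurons, and the other the receptor of the male tear peptide ESP1.
Vmn2r29: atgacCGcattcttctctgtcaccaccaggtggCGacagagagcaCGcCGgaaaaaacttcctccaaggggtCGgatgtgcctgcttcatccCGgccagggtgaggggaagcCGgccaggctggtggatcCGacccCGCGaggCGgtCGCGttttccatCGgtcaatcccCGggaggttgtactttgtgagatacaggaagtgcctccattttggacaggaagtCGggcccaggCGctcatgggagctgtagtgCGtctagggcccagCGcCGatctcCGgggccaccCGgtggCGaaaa
Vmn2r120: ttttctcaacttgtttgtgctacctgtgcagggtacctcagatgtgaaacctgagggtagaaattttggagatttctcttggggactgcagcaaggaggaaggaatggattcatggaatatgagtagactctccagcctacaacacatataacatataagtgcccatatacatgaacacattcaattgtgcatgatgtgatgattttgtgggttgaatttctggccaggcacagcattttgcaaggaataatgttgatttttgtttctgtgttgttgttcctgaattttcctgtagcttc
Vmn2r1: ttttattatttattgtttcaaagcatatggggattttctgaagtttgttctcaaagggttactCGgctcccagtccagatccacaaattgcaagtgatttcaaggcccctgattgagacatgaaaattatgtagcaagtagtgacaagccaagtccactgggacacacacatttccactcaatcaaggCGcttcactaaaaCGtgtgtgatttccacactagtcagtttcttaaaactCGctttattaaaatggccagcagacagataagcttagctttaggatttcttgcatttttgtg
Vmn2r116: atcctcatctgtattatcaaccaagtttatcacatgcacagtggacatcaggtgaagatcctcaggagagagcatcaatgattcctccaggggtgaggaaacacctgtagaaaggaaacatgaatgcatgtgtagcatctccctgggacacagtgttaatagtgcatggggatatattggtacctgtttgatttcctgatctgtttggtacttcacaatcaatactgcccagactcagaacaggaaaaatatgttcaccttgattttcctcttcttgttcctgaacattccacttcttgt

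Promoter windows were matched by symbol or gene ID for 117 of the 124 genes, as 118 windows. Those of Vmn2r29 and Vmn2r120 were the 2 windows of 118 that overlapped a peak in any library (1.69%), where the background over 21045 windows of all protein-coding genes was 65.0%. The windows of the other chemosensory families were much alike, with 3 of 205 Vmn1r windows (1.46%) and 5 of 944 Olfr windows (0.53%) under a peak. Ribosomal protein genes of the Rps and Rpl families, which every cell uses, had a peak at 78 of 89 windows (87.6%).

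Receptor promoters held few CpG, with a median of 1 per window against 13 over all windows, and CpG content went with peaks across the genome. Windows with 23 or more CpG made up 29.3% of all windows, and 97.9% of those held a peak; the single Vmn2r window of that kind was that of Vmn2r29. Windows with 4 to 22 CpG held a peak in 70.3% of all cases, but 0 of the 7 Vmn2r windows in that range did. Between 1 and 3 CpG, 14.1% of all windows and 0 of 76 Vmn2r windows held a peak. With no CpG, the figures were 6.72% of all windows and 1 of 34 Vmn2r windows. These backgrounds include the windows of the receptor families themselves. Among windows of other protein-coding genes with 3 or fewer CpG, 611 of 3677 (16.6%) held a peak. These CpG ranges were set after the counts of Vmn2r29 and Vmn2r1 had been seen.

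Vmn2r29 has a second annotated start, whose window (chr7:7247279-7247578, minus strand) has 0 CpG and no peak in any library. The open window belongs to the outer start, and the region over it, chr7:7277620-7278441 as deposited, lay 3868 bp from the next gene, Clcn4, which encodes a chloride and proton transporter. The peak there was 794 bp wide in Sox2 KO stomach, 473 bp in forestomach, 616 bp in hindstomach, 552 bp in E16 small intestine, 750 bp in colon, 537 bp in E13 stomach and 562 bp in E13 intestine. It was thus open in every library, with widths far above the 95 bp median of Vmn2r regions that a single library held. The Vmn2r120 peak, in contrast, was 87 bp wide and 1 of 450 such single-library regions.

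Sequence likeness bears on what these windows can show. Of the 118 windows, 76 (64.4%) shared a run of 50 identical bases with the window of another protein-coding gene, so short reads from them need not have a single place in the genome. The sources used here do not say how reads with several places were treated, and its part in the low counts was not tested. Neither Vmn2r29's open window nor that of Vmn2r120 shared such a run.

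Peak density was taken over the territory of the genes, the bases that lie nearest to a Vmn2r gene and within 100 kb of it, 11.8 Mb in all. Every library had fewer peaks per Mb there than at all other protein-coding genes, and the KO library had the fewest. Sox2 KO stomach had 76 Vmn2r peaks, or 6.43 per Mb (95% exact Poisson interval 5.07 to 8.05). At E16, forestomach had 126 peaks (10.7 per Mb), hindstomach 143 (12.1 per Mb), small intestine 184 (15.6 per Mb) and colon 289 (24.5 per Mb). At E13, stomach had 149 (12.6 per Mb) and intestine 176 (14.9 per Mb). Colon thus held the most receptor peaks and also the longest list, whereas the KO list was the third longest of the 7 and held the fewest.

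Each Vmn2r density was divided by that of all other protein-coding genes in the same library, so that a longer list does not by itself raise the value. The ratio can still depend on which peaks a list holds: with the 81179 widest peaks of each list it was 0.179 in hindstomach, 0.364 in colon and 0.231 in E13 stomach. With all peaks the ratio was 0.121 in Sox2 KO stomach (95% exact conditional interval 0.0952 to 0.151), the lowest of the 7. The stomach values were 0.26 in forestomach (0.216 to 0.309) and 0.226 in hindstomach (0.191 to 0.267), beside 0.28 in E13 stomach (0.237 to 0.329). The intestinal libraries stood higher, at 0.351 in E16 small intestine (0.302 to 0.406), 0.417 in colon (0.37 to 0.468) and 0.397 in E13 intestine (0.34 to 0.46). Intervals of neighbours in that order overlapped everywhere except between the KO and hindstomach.

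**Figure D1:**
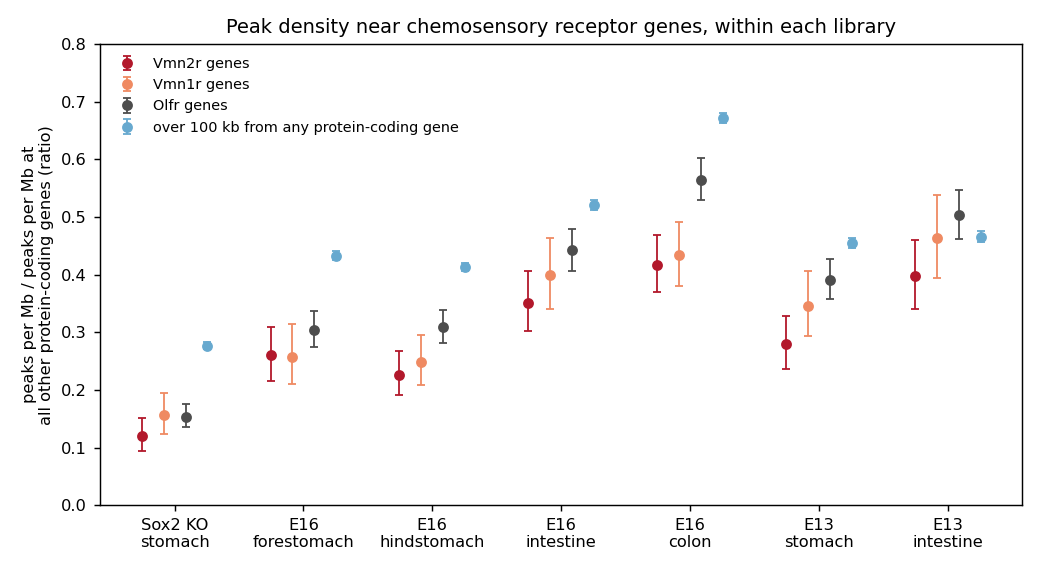
Peaks per Mb at Vmn2r, Vmn1r and Olfr genes and in sequence over 100 kb from any protein-coding gene, each divided by peaks per Mb at all other protein-coding genes of the same library; points are ratios and bars 95% exact intervals for counting error. Vmn2r genes lie lowest in 6 of the 7 libraries, with 0.121 in Sox2 KO stomach and 0.417 in colon at the ends of their range, and in forestomach their 0.26 stands beside 0.258 for Vmn1r.

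Set against the other stomach libraries directly, the KO ratio was 0.465 times that of forestomach (0.345 to 0.623), 0.534 times that of hindstomach (0.399 to 0.71) and 0.432 times that of E13 stomach (0.323 to 0.573). The same comparison for Olfr genes, the odorant receptors, gave 0.508, 0.5 and 0.395 times, and for Vmn1r genes, the other vomeronasal receptor family, 0.605, 0.628 and 0.452 times. The ratio of sequence over 100 kb from any protein-coding gene (713 Mb) was lower in the KO as well, at 0.641, 0.67 and 0.609 times. Relative to other genes, all 3 receptor families and the sequence far from genes were thus lower in the KO than in each of these stomach libraries. These values also depend on the density at other genes. It was 53.2 peaks per Mb in the KO, 41.0 in forestomach, 53.4 in hindstomach and 45.1 in E13 stomach. Sequence far from genes had 14.8 peaks per Mb in the KO, against 17.8, 22.1 and 20.5 in the same order. How the KO cells were isolated, and what its peak threshold was, cannot be told apart from the genotype.

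Between E16 and E13 the Vmn2r ratios had no stable order. That of E16 small intestine was 0.885 times that of E13 intestine (0.716 to 1.09), that of E16 forestomach 0.928 times (0.726 to 1.18) and that of E16 hindstomach 0.809 times that of E13 stomach (0.639 to 1.02), and each of these intervals includes 1. Over gene bodies alone all 3 directions turned, with 0.26 in E16 small intestine against 0.225 in E13 intestine, and 0.197 in forestomach and 0.221 in hindstomach against 0.156 in E13 stomach. Within 10 kb that of forestomach turned too, at 0.207 against 0.198 in E13 stomach. In the larger Olfr family all 3 intervals lay below 1, at 0.88 times for the intestines (0.782 to 0.991), 0.777 times for forestomach (0.678 to 0.89) and 0.789 times for hindstomach (0.696 to 0.895). Vmn1r genes were at 0.861 times (0.692 to 1.07), 0.746 times (0.575 to 0.966) and 0.719 times (0.564 to 0.917) in the same order. Sequence far from genes was at 1.12 times (1.09 to 1.15), 0.95 times (0.928 to 0.973) and 0.91 times (0.89 to 0.931), so it went the other way for the intestines.

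Stomach lay below intestine at both ages. Hindstomach had 0.645 times the Vmn2r ratio of E16 small intestine (0.515 to 0.807), and E13 stomach 0.705 times that of E13 intestine (0.563 to 0.882). Vmn1r genes were likewise at 0.625 times (0.493 to 0.79) and 0.748 times (0.596 to 0.938) in these pairs. Olfr genes were at 0.698 times (0.617 to 0.789) and 0.779 times (0.689 to 0.879). For sequence far from genes the same pairs were at 0.795 times (0.778 to 0.812) and 0.978 times (0.955 to 1.0). At E13 the ratio of that sequence thus hardly differed. Leaving aside the KO, the other E16 pairs compared had Vmn2r intervals that include 1. E16 small intestine was at 0.843 times colon (0.697 to 1.02) and forestomach at 1.15 times hindstomach (0.896 to 1.47). Against colon, E16 small intestine was at 0.919 times for Vmn1r genes (0.751 to 1.12). It was at 0.783 times for Olfr genes (0.705 to 0.869) and 0.775 times for sequence far from genes (0.761 to 0.791).

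Across the 7 libraries the Vmn2r ratio moved with that of Olfr genes (Pearson r 0.987, Spearman rho 0.964), of Vmn1r genes (r 0.975, rho 0.964) and of sequence far from genes (r 0.887, rho 0.964). All of these share the same lists and the same denominator, so the values are a description and not independent support for each other. With the number of peaks in the list the ratio had an r of 0.0606 and a rho of -0.0714, and with the median peak width of the list an r of -0.7 and a rho of -0.857. Lists with narrower peaks thus tended to have relatively more receptor peaks.

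Vmn2r territory was also sparser than sequence far from genes. Its density relative to that sequence was 0.436 times in Sox2 KO stomach (0.343 to 0.546), 0.6 times in forestomach, 0.547 times in hindstomach, 0.674 times in E16 small intestine, 0.62 times in colon, 0.615 times in E13 stomach and 0.853 times in E13 intestine (0.731 to 0.99). Sequence far from genes thus did not have the fewest called peaks per Mb in these lists. Reads from near-identical receptor copies need not have a single place in the genome, and the part of this in the lower Vmn2r density was not tested. Rps and Rpl territory, as a contrast, had 1.05 times the peaks of other genes in colon at the lowest and 1.43 times in E13 intestine at the highest.

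The peptide ligands of V2R receptors gave a like picture in part. The 15 Esp genes, which encode exocrine-gland secreted peptides, had 5 peaks in Sox2 KO stomach, 0.0603 times the density at other genes (0.0196 to 0.141), and 48 peaks in colon, 0.524 times (0.387 to 0.695). The 22 Mup genes, which encode major urinary proteins made mainly in liver, were nearer to other genes, at 0.541 times in the KO (0.406 to 0.705) and 1.26 times in colon (1.06 to 1.49). The 15 Taar genes, a further olfactory receptor family, had a territory of only 0.217 Mb and between 10 and 17 peaks per library, with intervals that included 1 in 6 libraries; forestomach stood at 1.91 times (1.11 to 3.06).

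Counted by gene, 118 of the 124 Vmn2r genes had at least 1 region in some library (background over all protein-coding genes 94.5%), but far fewer had one in any given library. In Sox2 KO stomach it was 47 of 124, against a background of 82.2%. The counts were 72 in forestomach (background 80.5%), 72 in hindstomach (84.3%), 83 in E16 small intestine (82.3%), 98 in colon (85.1%), 72 in E13 stomach (83.5%) and 83 in E13 intestine (81.5%). Only colon came near its background. A region in every library was found at 24 of the 124 genes. The share of all protein-coding genes with one was not counted, so 24 is not read as low or high.

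Regions inside a receptor gene were found at 73 genes (background 83.8%), and regions within 1 kb of an own gene end at 15 (77.8%). A region at an own end that at least 2 libraries held was found at 5 genes (69.4%): Vmn2r2, Vmn2r4, Vmn2r29, Vmn2r39 and Vmn2r91. A region held by 4 or more libraries was found at 41 genes (76.6%), and a region of all 7 libraries at 10 (48.4%). The 6 genes with no region were Vmn2r14, Vmn2r42, Vmn2r65, Vmn2r116, Vmn2r122 and Vmn2r124. Of these, Vmn2r122 lies on chromosome 4 at 3536 to 11935 in the gene table, before the first peak of that chromosome, so it has no territory and its 0 says nothing; it was named after its value was seen, as were Vmn2r14 and Vmn2r42.

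**Figure D2:**
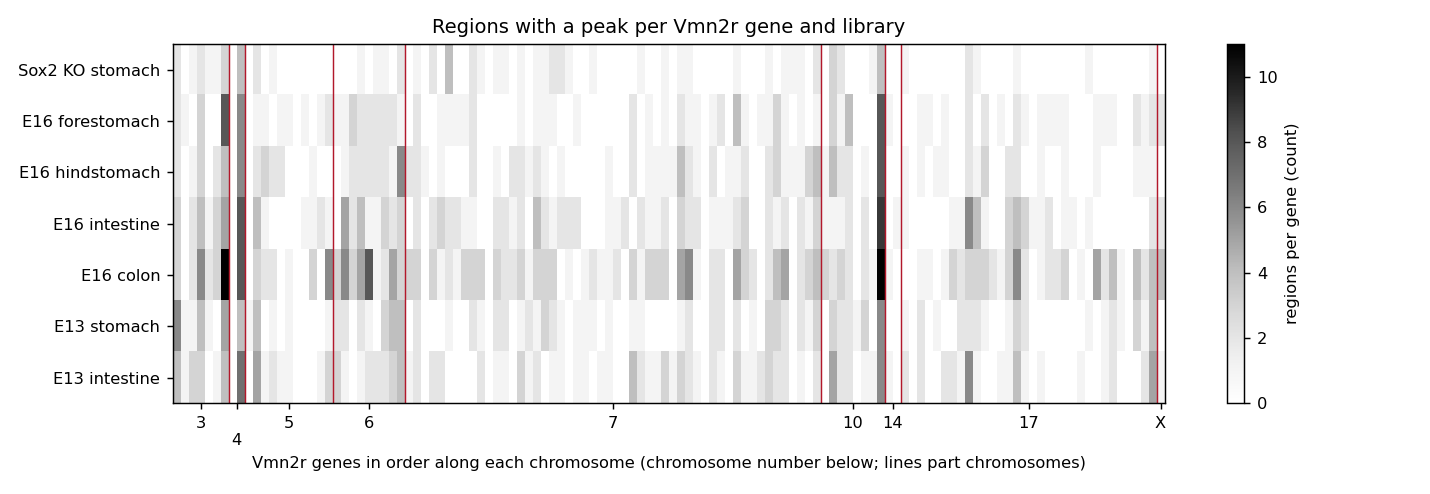
Number of regions with a peak per Vmn2r gene (columns, in order along each chromosome) and library (rows); the grey scale is the count. Sox2 KO stomach is the palest row, with a region at 47 genes and at most 4 per gene, and colon the darkest, with a region at 98 genes and up to 11; the dark columns include Vmn2r7, Vmn2r129 and Vmn2r87.

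Family C receptors, Vmn2r1 to Vmn2r7 on chromosome 3, are the V2R genes co-expressed with receptors of the other families. Vmn2r7 had the most regions of all 124 genes, 20, in a territory of 192 kb. Of these 3 were open in Sox2 KO stomach, 8 in forestomach, 4 in hindstomach, 5 in E16 small intestine, 11 in colon, 5 in E13 stomach and 4 in E13 intestine. Colon and forestomach stood out at that gene. Vmn2r1 had 13 regions, with 2 in Sox2 KO stomach, 2 in forestomach, 2 in hindstomach, 3 in E16 small intestine, 3 in colon, 6 in E13 stomach and 4 in E13 intestine, so here the E13 libraries held the most. Vmn2r4 had 11 regions, Vmn2r6 had 6, Vmn2r5 and Vmn2r3 had 5 each, and Vmn2r2 had 3. Vmn2r2 had none in the KO, hindstomach, E16 small intestine or colon. Vmn2r53 on chromosome 7, which is outside family C, had 3 regions and none in the KO or forestomach.

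Part of the family C count is set by how the gene models lie. The Vmn2r1 model spans 142676 bp, the longest of the family against a median of 24392 bp, and contains the whole of Vmn2r2. Its widest region, chr3:64171279-64172793 as deposited, was open in all 7 libraries and lay within 1 kb of the Vmn2r2 end, so it counts for Vmn2r2 in the gene-end counts above and for Vmn2r1 in the region counts. Its widest single peak was 1071 bp, in E16 small intestine, and the KO had 3 separate peaks in it, of 302, 126 and 114 bp. Vmn2r4 also had a region of all 7 libraries at its own end (chr3:64414358-64414545), with narrow peaks of 97 bp in the KO and E13 intestine, 187 bp in forestomach, 146 bp in hindstomach, 148 bp in E16 small intestine, 155 bp in colon and 136 bp in E13 stomach.

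Among the other families, Vmn2r87 had 15 regions, of which 6 were held by 4 or more libraries. It had 4 in Sox2 KO stomach, 8 in forestomach, 8 in hindstomach, 9 in E16 small intestine, 11 in colon, 6 in E13 stomach and 6 in E13 intestine. Vmn2r129, the shortest of the 124 genes at 8397 bp, had 12 regions in 64.5 kb of territory, 6 of them in 4 or more libraries, with 4 in the KO, 6 in forestomach, 6 in hindstomach, 8 in E16 small intestine, 8 in colon, 4 in E13 stomach and 7 in E13 intestine. None of its regions lay inside the gene, and the nearest other gene, Samd11, was over 50 kb away. Vmn2r18 was the opposite case, with 13 regions each held by a single library, 6 of them by colon and 0 by the KO or hindstomach. Vmn2r103 had 14 regions, Vmn2r97 and Vmn2r63 had 13 each, and Vmn2r120 and Vmn2r27 had 12 each. Vmn2r65, Vmn2r116 and Vmn2r124, the longest genes with no region, had territories of 50.9, 58.3 and 43.5 kb.

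The number of regions per gene went with the size of its territory (Pearson r 0.611, Spearman rho 0.653, over the 123 genes with a territory). Genes of a cluster share their surroundings, so these points are not independent, and no p is given. Genes with larger territories tended to have more regions.

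By chromosome cluster, a run of receptor genes with gaps of at most 1 Mb, densities differed between parts of the family. The 4 genes Vmn2r84 to Vmn2r87 on chromosome 10 had 109 merged regions per Mb (exact Poisson interval 69.8 to 162), and the family C genes Vmn2r1 to Vmn2r7 had 81.8 per Mb (62.9 to 105). The 9 genes Vmn2r19 to Vmn2r27 on chromosome 6 had 73.3 per Mb (57.2 to 92.4). The largest clusters were sparser, with 48.1 per Mb over the 24 genes Vmn2r29 to Vmn2r52 on chromosome 7 (39.7 to 57.7) and 43.6 per Mb over the 22 genes Vmn2r90 to Vmn2r110 on chromosome 17 (35.4 to 53.1). Among the 11 clusters of 4 or more genes, the KO was the lowest library or tied for lowest in 10. Vmn2r29 to Vmn2r52 was the exception, with 8.77 regions per Mb in the KO, 5.43 in forestomach and 6.69 in hindstomach.

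**Figure D3:**
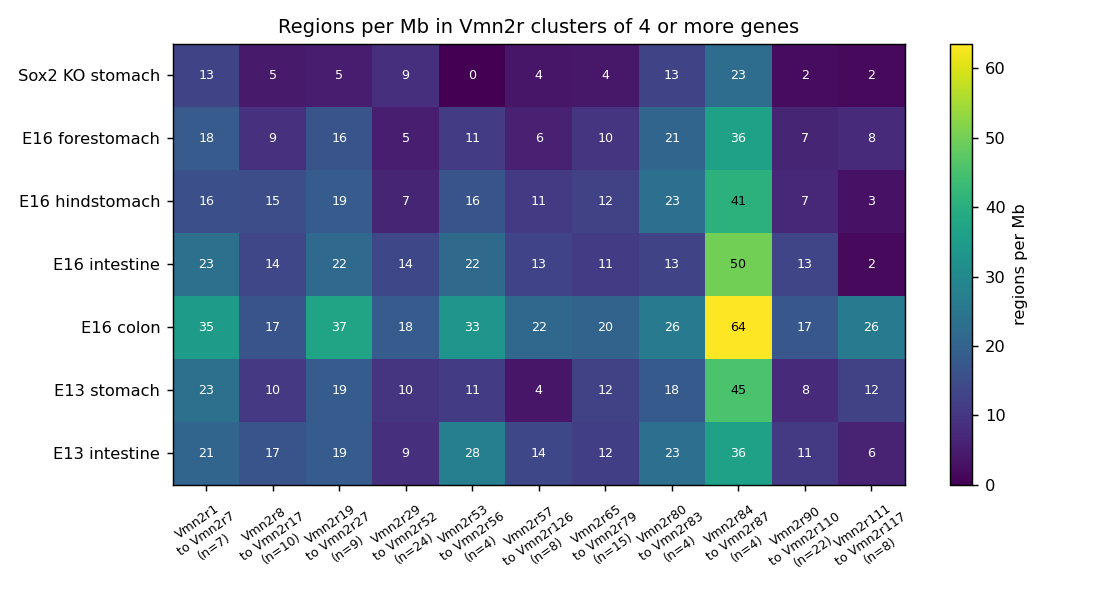
Regions per Mb of territory in each library (rows) for the 11 Vmn2r clusters with 4 or more genes (columns, n is the number of genes). The cluster Vmn2r84 to Vmn2r87 is the densest in every library, with 22.7 regions per Mb in Sox2 KO stomach and 63.5 in colon, and colon is the highest library or tied for it in each of the 11 clusters.

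Receptor regions were mostly held by a single library. Of the 668 regions, 450 (67.4%, Wilson interval 63.7 to 70.8) had a peak in 1 library, against a background of 55.3% over all regions of the series. Regions held by 4 or more libraries numbered 61 (9.13%, background 17.8%), and regions of all 7 libraries 13 (1.95%, background 4.46%). Vmn1r regions (68.1% in 1 library) and Olfr regions (67.2%) were alike. Over regions of the series away from gene ends, 57.7% had a peak in 1 library and 2.15% in all 7. The Vmn2r share of 1.95% is not fully comparable with the latter. It still includes the 18 Vmn2r regions at gene ends, of which 3 were held by 4 or more libraries.

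**Figure D4:**
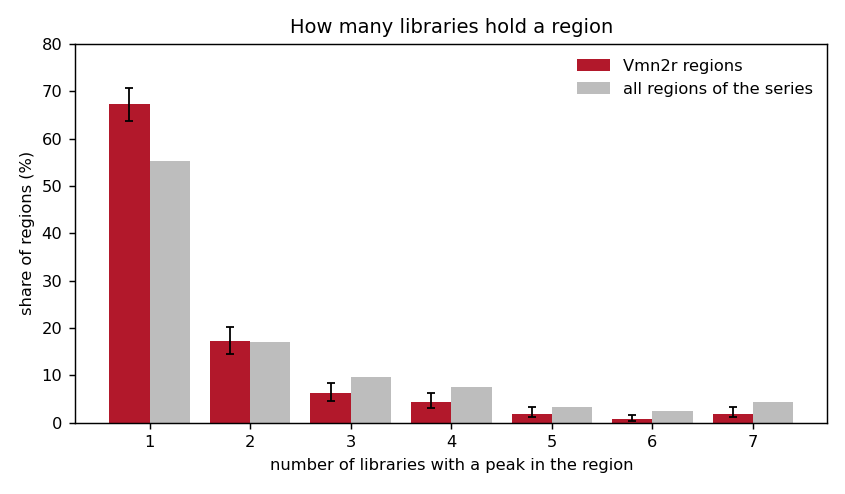
Share of regions by the number of libraries that hold a peak in them, for the 668 Vmn2r regions (red, with 95% Wilson intervals) and all 326695 regions (grey). Vmn2r regions exceed all regions at 1 library, 67.4% against 55.3%, match them at 2 (17.2% against 17.1%) and fall below them from 3 on.

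Pairs of libraries overlapped less at receptor genes than over regions at large. The Jaccard index, the regions shared by a pair of libraries divided by those of either, was lower at Vmn2r genes than over all regions in 21 of 21 pairs, with a median of 0.146 against 0.263. The pair most alike at Vmn2r genes was Sox2 KO stomach and E13 stomach, at 0.263 (45 shared of 171 regions), against 0.399 over all regions. Forestomach and hindstomach followed at 0.256 (53 of 207), against 0.453 over all regions. The pair least alike was the KO and colon, at 0.059 against 0.12.

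The share of a library's own receptor regions that no other library held was lowest in the KO, at 15 of 71 (21.1%, 13.2 to 32.0). The others had 30.1% in forestomach, 29.2% in hindstomach, 34.8% in E16 small intestine, 49.7% in colon, 44.8% in E13 stomach and 51.8% in E13 intestine. Over all regions these shares were 28% in the KO, 14.1% in forestomach, 15.6% in hindstomach, 22.3% in E16 small intestine, 41.5% in colon, 26.9% in E13 stomach and 28.7% in E13 intestine. Private regions were thus more frequent at receptor genes than at large in 6 libraries and less frequent in the KO, whose interval there includes its own overall share.

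The 13 regions of all 7 libraries lay at Vmn2r87 (3 regions), Vmn2r129 (2) and Vmn2r1, Vmn2r4, Vmn2r9, Vmn2r25, Vmn2r29, Vmn2r75, Vmn2r77 and Vmn2r82. They had a median merged width of 561 bp, between 187 and 1514 bp, against 95 bp for the 450 regions of 1 library; a merged region grows with the number of peaks joined in it. Of the 13, 4 lay inside a receptor gene and 2 had another protein-coding gene within 50 kb. One lay outside Vmn2r129 (chr4:156356642-156357583), with a peak of 285 bp as the wider of 2 in the KO, 939 bp in colon and 595 bp in E13 stomach. Another lay outside Vmn2r87 (chr10:130541897-130542599), where the 7 peaks were between 574 and 673 bp wide.

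Peaks at Vmn2r genes were narrow in every library, but so were those at Vmn1r and Olfr genes and in sequence far from genes. In the KO the medians of these sets were 118, 110 and 133 bp, and in colon 116, 111 and 116 bp. The median width at Vmn2r genes was 130 bp in Sox2 KO stomach against 156 bp at all other protein-coding genes. That KO difference against all other assigned peaks, -26 bp, had an interval of -55 to 1 bp. In the other libraries the pairs were 132 against 184 bp in forestomach, 118 against 152 bp in hindstomach, 110 against 134 bp in E16 small intestine, 116 against 126 bp in colon, 108 against 144 bp in E13 stomach and 87.5 against 112 bp in E13 intestine. Without peaks at gene ends on either side, the receptor peaks were still narrower in all 7 libraries, by 39 bp in forestomach at the most and by 8 bp in colon at the least.

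Each list has a smallest width, which lies between 62 bp (E13 intestine) and 108 bp (forestomach), and many peaks sit exactly there. Of the receptor peaks 11 of 76 (14.5%) had that width in Sox2 KO stomach, against 11177 of the 107067 peaks of the whole list. The shares were 25.4% against 13.8% in forestomach, 21.0% against 13.7% in hindstomach, 24.5% against 16.4% in E16 small intestine, 26.3% against 17.9% in colon, 29.5% against 16.6% in E13 stomach and 31.8% against 19.4% in E13 intestine. Receptor peaks over 300 bp numbered 6 in the KO (7.89%, against 20.3% of its list) and between 5 and 11 in each of the other libraries. Shares there were 3.97% against 21.5% in forestomach, 5.59% against 15.9% in hindstomach and 4.35% against 11.8% in E16 small intestine. Colon had 3.81% against 9.11%, E13 stomach 7.38% against 15.4% and E13 intestine 3.98% against 9.08%. The KO share of receptor peaks was the highest of the 7. If only peaks at or above the median width of their list were kept, the density ratio fell to 0.133 in forestomach and 0.182 in E13 stomach, over 1.5 times below the values given above, and the KO stayed the lowest at 0.0932.

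**Figure D5:**
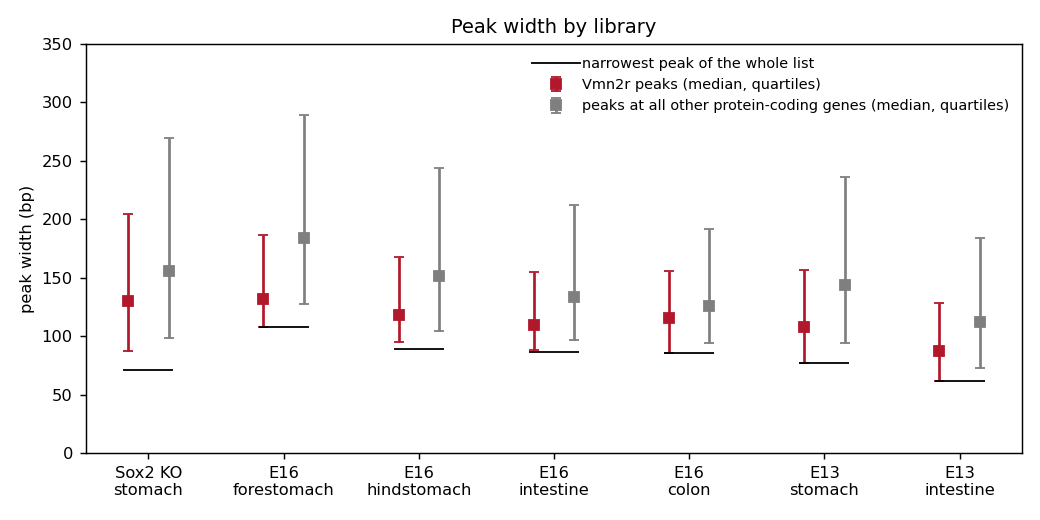
Median peak width with quartiles at Vmn2r genes (red) and at all other protein-coding genes (grey) in each library; the black line is the narrowest peak of that library's whole list. The red median lies below the grey one in all 7 libraries, and in forestomach, colon, E13 stomach and E13 intestine the lower quartile of Vmn2r peaks is at the narrowest width.

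Most receptor regions lay away from other genes and away from gene ends. Of the 668, 593 (88.8%) were over 50 kb from any protein-coding gene outside the family, where the background over all regions was 26.7%. The counting rule favours this contrast, since a region counts only where a Vmn2r gene is nearest and these genes lie in clusters. Density over 50 kb from other genes was close to that of the whole territory, at 6.64 against 6.43 per Mb in the KO and 24.9 against 24.5 in colon. Only 18 (2.69%) were within 1 kb of a gene end, against a background of 8.32%. Inside a receptor gene lay 152 regions (22.8%), 131 more were within 10 kb, 304 between 10 and 50 kb, and 81 beyond. The share of single-library regions was much the same in these positions, between 61.7% and 69.5%.

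Gene bodies and their flanks differed by library. At other protein-coding genes bodies were denser than flanks in every library, with 61.9 against 41.8 peaks per Mb in the KO as an example. At receptor genes in Sox2 KO stomach bodies held 9 peaks, or 2.8 per Mb (1.28 to 5.32), and flanks 7.79 per Mb (6.03 to 9.89). E13 stomach had 8.1 per Mb in bodies and 14.3 in flanks, and E13 intestine 9.97 and 16.7. In hindstomach (13.1 in bodies, 11.7 in flanks) and colon (26.8 and 23.6) the pair of values lay within each other's intervals. Over gene bodies alone the ratio to other genes was 0.0453 in the KO, 0.156 in E13 stomach and 0.225 in E13 intestine, each over 1.5 times below the ratio over the whole territory.

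Most of the signalling and transcription factor genes listed for vomeronasal neurons, basal or apical, had a peak at a gene end in some library, unlike the receptor genes. Most protein-coding genes had one too, so this does not set the listed genes apart. A smaller share of them than of all genes had such a peak in all 7 libraries. With only 11 and 9 genes listed, this is not read as a trait of these genes. Of 11 signalling and adhesion genes 10 had a peak at a gene end in some library (background 77.8%) and 3 in all 7 (background 44.0%). Gnao1, which encodes the G protein subunit of basal neurons, had 31 regions, and Gnai2, that of apical neurons, had 10; both genes are also used in other tissues. Trpc2, the channel most specific to these neurons, had 1 region, in colon. Omp, a marker of mature olfactory and vomeronasal neurons, had none assigned to it, though 4 libraries had a peak within 1 kb of one of its ends. Of 9 transcription factor genes, such as Bcl11b and Lhx2, all 9 had a region (background 94.5%) and a gene-end peak in some library (background 77.8%), and 3 had one in all 7 (background 44.0%). The 9 H2-M genes of nonclassical MHC proteins, which basal vomeronasal neurons co-express with V2R genes, were nearer to the receptors, with a gene-end peak at 1 of 9, H2-M10.3, in E13 intestine alone.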

How the data were processed

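Each of the 7 groups had 1 ATAC-seq library. Per the submitters' processing notes, the authors used cutadapt, Bowtie2 and MACS2 with GRCm38/mm10; the sources used here give no version, threshold, pooling or treatment of repeated sequence. Deposited files hold only the chromosome, start and end of each peak, with no height, score, p or read count; positions are printed as deposited. Peaks on chromosomes 1 to 19 and X were merged at 1 bp of overlap, and 81.0% of regions had a protein-coding gene body within 100 kb. Gaps between genes were split at the midpoint to give territories, leaving out bases before the first peak of a chromosome and 108 genes that lie there. Density has exact Poisson, ratio exact conditional binomial and share Wilson intervals. The rule named the 10 genes with most regions, those with a region of 4 or more libraries (the text prints a part) and those with a shared gene-end region. It also named the 3 longest without a region, family C, Vmn2r53 and Vmn2r116. One listed transcription factor gene is not reported here. The genes, lists and tests were chosen with earlier results of these data known. Counting was checked on simulated peaks. Tools were matplotlib 3.10.9, pandas 2.3.3, scipy 1.17.1, numpy 2.4.6 and Python 3.11.15.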

Additional observations from a re-analysis of the deposited data

Results flagged for a closer look

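Chromosome Y was left out of all counts above, but it carries 20 annotated Vmn2r pseudogenes. Peaks within 100 kb of one of them numbered 2 in Sox2 KO stomach, 20 in E16 forestomach, 19 in E16 hindstomach, 18 in E16 small intestine, 33 in E16 colon, 7 in E13 stomach and 7 in E13 intestine. These counts were noted because all but that of the KO exceed 3, the limit that a count of 0 allows; passing it needs only some peaks on chromosome Y and says nothing about the pseudogenes. None of these peaks lay inside a pseudogene (0 in each of the 7 libraries). On the whole of chromosome Y the KO list had 69 peaks, E16 lists between 565 and 1111, and E13 lists 178 and 187.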

How the results depend on the processing

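No single ratio or width difference changed sides under any alternative run, and the KO had the lowest density ratio in each, but the order of the other libraries did change. Over gene bodies all 3 comparisons of E16 with E13 turned, and within 10 kb that of forestomach with E13 stomach. Merged Vmn2r regions fell to 283 within 10 kb, 152 over gene bodies and 241 with peaks at or above the median width of their list. Genes with a region numbered 73 over gene bodies. Within 10 kb the ratio to other genes was 0.0877 in the KO, 0.207 in forestomach, 0.302 in E16 small intestine, 0.198 in E13 stomach and 0.313 in E13 intestine. Over gene bodies it was 0.0453 in the KO, 0.197 in forestomach, 0.26 in E16 small intestine, 0.156 in E13 stomach and 0.225 in E13 intestine. With the wider peaks it was 0.0932 in the KO, 0.133 in forestomach, 0.154 in hindstomach, 0.243 in E16 small intestine, 0.35 in colon, 0.182 in E13 stomach and 0.27 in E13 intestine. With the 81179 widest peaks of each list it was 0.179 in hindstomach, 0.364 in colon and 0.231 in E13 stomach. Leaving out gene-end peaks, an alternative for the ratio chosen after seeing the data, gave 0.315 in forestomach, 0.267 in hindstomach, 0.42 in E16 small intestine, 0.344 in E13 stomach and 0.529 in E13 intestine, so that E13 intestine then stood above colon (0.46), as it did with the widest peaks (0.397). The same step moved the width difference to -39 bp in forestomach and -21 bp in E13 stomach. The cause of these shifts was not tested. Leaving out single libraries gave 114 to 118 genes with a region, 527 to 653 regions and 67.2 to 72% of regions in 1 library. Regions over 50 kb from other genes, joining peaks up to 100 bp apart and a stricter overlap moved no value by more than its interval or 1.5 times. No paired analysis was possible because each group had 1 library and no test was made. Depth and the treatment of repeated sequence are unknown, so a gene without a region was without a called peak and is not shown to be closed.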
